A study of Mus musculus with 12 samples.

Results

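The cortex of R6/2 mice was compared after and before the onset of symptoms, with 4 of the 12 RNAseq libraries of the study. These were the 2 postHD-CTX libraries, from R6/2 mice labelled as 13 weeks old and post-symptom, and the 2 preHD-CTX libraries, from R6/2 mice labelled as 8 weeks old and pre-symptom. R6/2 mice carry a transgene of the first exon of the human huntingtin gene with an expanded CAG repeat, driven by the human huntingtin promoter, beside their own intact huntingtin genes, and so model Huntington's disease (HD) as a fast disease of a protein fragment. Cortex of WT littermates was sequenced once at each of the same ages, and striatum was sequenced with the same numbers of HD and WT libraries. The labels name no agent for any group. Because the labels set the symptom stage by age, stage and age cannot be told apart within the HD mice. The 2 WT cortex libraries are the only measure of age without the transgene, and they differed in more than age, as described below. The labels do not say whether each library came from 1 mouse or from a pool, so the p-values below measure the spread between these libraries.

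Cortical pyramidal neurons, the projection neurons that excite the striatum and other regions, receive inhibition from local interneurons that use GABA together with peptides such as somatostatin and neuropeptide Y. In both kinds of neuron, synaptic input raises calcium, which acts through calmodulin and its kinases on receptors and channels and on transcription factors that bind promoters, among them CREB at the cAMP response element (CRE). Loss of transcripts for synaptic receptors, signalling enzymes and neuropeptides is a known feature of HD brain and of R6/2 brain, and the cortex supplies the striatum with much of its glutamate and BDNF.

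Depth was even, with 10336064 to 11242872 counts in the HD cortex libraries and 8814386 to 12091201 over all 12. Reads on the ribosomal RNA gene Rn45s took 10.5% to 13.8% of the counts in HD cortex and 5.15% to 5.16% in WT cortex, and leaving that gene out changed the number of calls by 1. By Xist and the Y-linked genes, replicate 1 of both HD cortex groups was male and replicate 2 female, so sex was balanced between the stages, whereas the 8-week WT library was male and the 13-week WT library female. One of the post-symptomatic libraries, replicate 2, stood apart by choroid plexus transcripts, which are described with the cell type markers. Neuron markers were abundant in all 4 HD cortex libraries and the striatal markers Drd2, Adora2a and Isl1 were at or below 2.29 CPM (CPM is a gene's count scaled to the library total and its TMM factor) in those libraries.

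After symptom onset more genes fell than rose. In the edgeR quasi-likelihood test over the 8 HD libraries, in which striatum and cortex shared the estimate of the spread, 85 of 14392 genes passed an adjusted p of 0.05, which is 0.591% of the genes tested. Of these, 80 (0.556%) fell and 5 (0.0347%) rose in post-symptomatic cortex. The genes that fell had log2 fold changes from -3.59 to -0.87, with a median of -1.51, and at that median pre-symptomatic cortex held 2.85 times the level of post-symptomatic cortex. The values of the groups did not overlap for any of the 85 genes, and over all genes tested post-symptomatic cortex was lower without overlap for 28.8% and higher without overlap for 26.5%. Over all genes the changes were centred on 0, with 50.2% of them below 0.

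The number of genes called differed with the libraries that entered the fit. The 2 pre-symptomatic striatal libraries differed from each other far more than any other pair of replicates (chi-square of 73 per degree of freedom, against 6.98 for pre-symptomatic and 16.8 for post-symptomatic cortex). With either of them left out, 1197 or 1202 genes were called in cortex. With either post-symptomatic striatal library left out 36 were called, and with 1 of the 4 cortex libraries left out between 0 and 2. When the 4 HD cortex libraries were fitted alone, 2210 of 13709 genes passed (16.1%), 1488 of them lower (10.9%) and 722 higher (5.27%), and 1356 to 2482 passed when 1 cortex library was left out of that fit. DESeq2 over the 8 HD libraries called 558 genes (3.88%), 459 lower (3.19%) and 99 higher (0.688%). All 85 genes of the 8-library test were also called by DESeq2 and by the 4 cortex libraries alone. In the text below, genes are said to have risen or fallen where they passed over the 8 HD libraries, and calls over the 4 cortex libraries alone are named as such. Where 2 adjusted p are given for 1 gene, the first is over the 8 HD libraries and the second over the 4 cortex libraries.

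**Figure D1:**
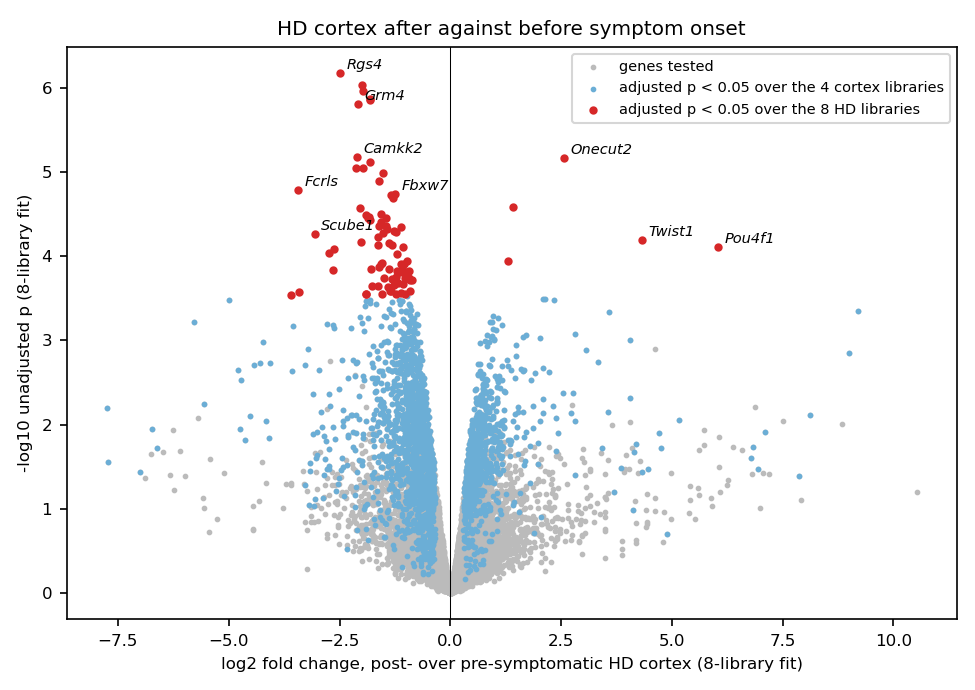
Change of each gene in HD cortex after against before symptom onset. The x axis gives the log2 fold change and the y axis the -log10 of the unadjusted p, both over the 8 HD libraries, for 14392 genes; red points mark the 85 genes called there (80 to the left of 0, 5 to the right) and blue points genes called over the 4 HD cortex libraries alone.

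Promoters of the genes that fell were searched for known motifs, since members that moved together might share letters near their start sites. RefSeq windows (GRCm38.p6) of 250 bases before and 50 after the start site were found for 55 of the 80 genes that fell, 3 of the 5 that rose and 10878 of the genes tested. The full CRE, TGACGTCA, which reads the same on both strands, lay in the windows of 4 of the 55 genes that fell (7.27%), against 3.51% of all 10878 windows. Those 4 windows are shown in part, with the CRE in capitals and up to 40 bases on each side, because they hold the element through which cAMP and calcium signals are known to act. The 4 genes are Dio2 (chr12:90739086-90739173, minus strand), which encodes the enzyme that activates thyroid hormone, Fstl4 (chr11:52764589-52764676, plus strand), a secreted follistatin-like protein, Hlf (chr11:90390918-90390966, minus strand), a clock-driven transcription factor, and Sst (chr16:23890845-23890932, minus strand), the peptide somatostatin, whose CRE is a textbook example.
Dio2: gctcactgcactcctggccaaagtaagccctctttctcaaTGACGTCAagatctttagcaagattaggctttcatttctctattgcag
Fstl4: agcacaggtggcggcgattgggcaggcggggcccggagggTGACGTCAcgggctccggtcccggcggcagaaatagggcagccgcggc
Hlf: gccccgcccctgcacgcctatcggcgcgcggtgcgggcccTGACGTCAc
Sst: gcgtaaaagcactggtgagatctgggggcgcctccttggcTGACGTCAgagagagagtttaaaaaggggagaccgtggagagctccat
The other motifs were searched on both strands in the same windows. EGR motifs (GCGTGGGCG or GCGGGGGCG) were in 10.9% of the windows of genes that fell and 7.57% of all windows, TATAAA in 14.5% and 8.89%, the E-box CACGTG in 3.64% and 11.5%, AP-1 motifs (TGACTCA or TGAGTCA) in 1.82% and 4.43%, and PAR bZIP motifs (TTATGTAA or TTACGTAA) in 1.82% and 0.947%. Of the 3 windows of genes that rose, 2 held TATAAA, those of Snhg8 and Twist1, and none held any of the other motifs. These matches are descriptions of the letters and were not tested.

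The genes with the largest falls were chosen for groups that did not overlap, so each was lower in both post-symptomatic libraries than in either pre-symptomatic one. Rgs4 (chr1:169741477-169747642), a regulator that shortens signalling by G proteins, stood at 1335 and 1532 CPM in the pre-symptomatic libraries, 262 and 252 CPM in the post-symptomatic libraries and 1636 and 1129 CPM in WT cortex at 8 and 13 weeks. The 2 post-symptomatic HD libraries were far below the other 4. Before onset Rgs4 was 5.61 times as high as after (log2 fold change -2.49, SE 0.20, adjusted p = 0.00371), with the smallest adjusted p of the comparison, shared with Grm4, Sept5, Gp1bb, Nptxr and Npcd, the 6 genes that also passed an adjusted p of 0.01. Otof (chr5:30367066-30462730), which encodes the vesicle calcium sensor otoferlin and marks upper cortical layers, went from 11.4 and 8.58 CPM to 1.38 and 0.265 CPM (log2 fold change -3.59, SE 0.62, adjusted p = 0.0493), with 7.07 and 7.8 CPM in WT cortex. Scube1 (chr15:83602583-83725051), a secreted and membrane-bound glycoprotein, went from 58.4 and 44.1 CPM to 7.22 and 5.12 CPM (log2 fold change -3.06, SE 0.42, adjusted p = 0.0231). Hipk4, a kinase of the homeodomain-interacting family, went from 9.77 and 13.8 CPM to 0.86 and 1.32 CPM. Both Scube1 and Hipk4 were higher in each WT library than in either post-symptomatic HD library, with 40.3 and 30.7 CPM and 6.73 and 5.6 CPM in WT cortex. Nrep, a regulator of neuronal growth, fell by 2.74 on the log2 scale and Ier5l by 2.66. Gfra2, the receptor subunit for neurturin, went from 126 and 139 CPM to 28.2 and 36.8 CPM, and Ackr1, a chemokine receptor, from 90.4 and 83 CPM to 21.2 and 18.6 CPM.

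Several of these genes overlap a neighbour, so that the reads cannot be assigned to 1 gene. Sept5 and Gp1bb overlap on chromosome 16 and had nearly the same values (1233 and 1351 CPM for Sept5 and 1255 and 1379.7 CPM for Gp1bb before, 361 and 291 CPM and 371 and 302 CPM after, adjusted p = 0.00371 for both). The first encodes a septin of synaptic vesicles and the second a platelet glycoprotein. Likewise Nptxr, the neuronal pentraxin receptor, and Npcd share their positions and values, with log2 fold changes of -1.82 and -1.82. The count of 85 therefore holds at least 2 pairs that measure the same reads. Dlx1as lies opposite Dlx1, a transcription factor of interneurons, and Grin1os opposite Grin1, the obligate subunit of NMDA receptors. Whether the counting used strand is not given in the sources used here, so neither antisense gene (log2 fold changes -2.63 and -0.87) can be told apart from its partner.

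**Figure D2:**
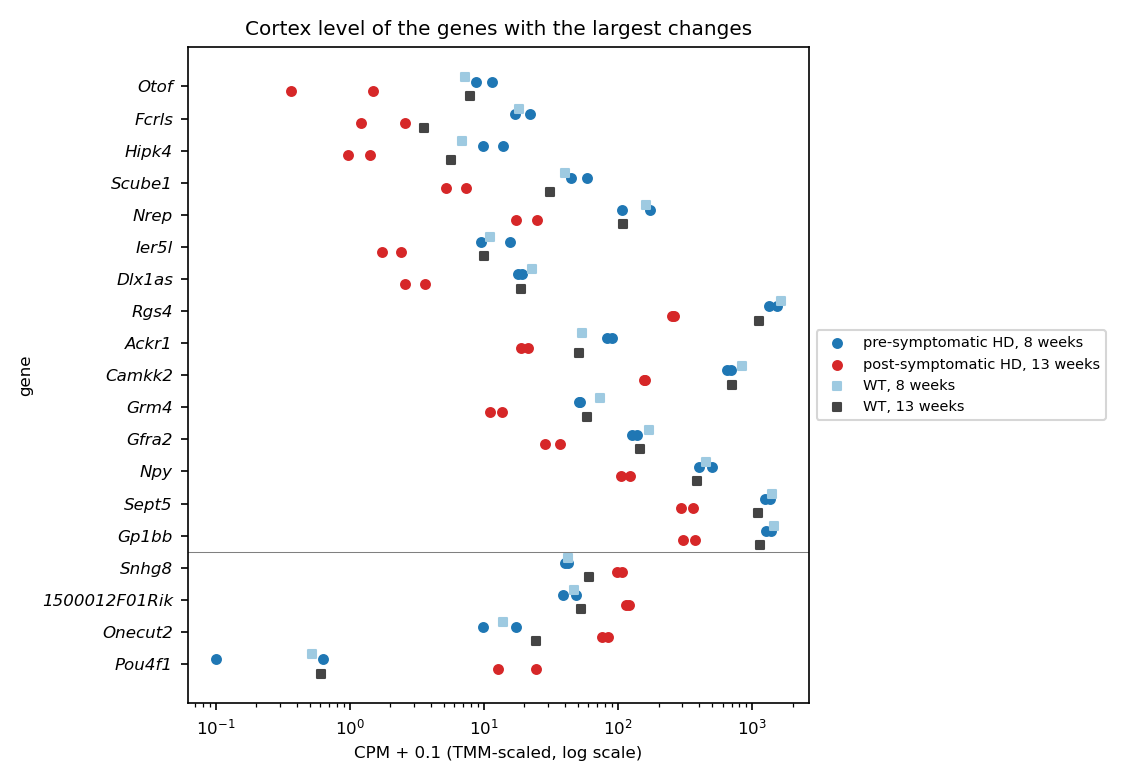
Levels of the genes with the largest changes among those called with a mean of at least 5 CPM in HD cortex. Each row is a gene (15 that fell above the line, those that rose below it) and the x axis is CPM plus 0.1 on a log scale, with circles for HD and squares for WT libraries; in every row the 2 post-symptomatic HD points lie to 1 side of both pre-symptomatic points.

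Calcium sensing and calmodulin signalling held the most calls of any list by number over the 8 HD libraries, though not by share. Glutamate receptors, with 3 of 23, held a larger share. Of 37 calcium sensors and calmodulin kinases tested, 4 fell and none rose over the 8 HD libraries, where 0.556% of all genes fell. Over the 4 cortex libraries 27 of the 37 were lower and 1 higher, against 10.9% lower and 5.27% higher over all genes. Their median log2 fold change was -0.76. Camkk2 (chr5:122718380-122779522), the kinase that activates other calmodulin kinases and AMPK, stood at 649 and 697 CPM before and 155 and 159 CPM after symptom onset, against 834 and 702 CPM in WT cortex. Both post-symptomatic libraries were far below the other 4, and the pre-symptomatic level was 4.31 times the later one (log2 fold change -2.11, SE 0.23, adjusted p = 0.0117). Camk2a, the kinase subunit needed for long-term potentiation, went from 4322 and 4261 CPM to 1420.0 and 1378 CPM (log2 fold change -1.62, SE 0.27, adjusted p = 0.0447). Its protein inhibitor Camk2n1 went from 14454 and 17105 CPM to 4500.5 and 4295 CPM (log2 fold change -1.85, SE 0.24, adjusted p = 0.0212), so kinase and inhibitor transcripts fell together. Hpcal1, a neuronal calcium sensor, went from 45.8 and 49.4 CPM to 22.6 and 18.5 CPM (log2 fold change -1.22, SE 0.21, adjusted p = 0.0487). Others did not pass over the 8 libraries. Camk4, a nuclear calmodulin kinase that phosphorylates CREB, stood at 296 and 305 CPM before and 114 and 98.5 CPM after (adjusted p = 0.0801), and Pcp4, a calmodulin-binding peptide, at 343 and 269 CPM before and 144 and 114 CPM after (adjusted p = 0.0673). Over the 4 cortex libraries both were called, with adjusted p of 4.88e-09 and 3.61e-06.

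Calcium entry and removal held 1 gene that fell. Among 33 calcium channels, stores and pumps, Atp2b2, a plasma membrane pump that extrudes calcium, fell from 871 and 919 CPM to 342 and 316 CPM (log2 fold change -1.45, SE 0.19, adjusted p = 0.0212). Over the 4 cortex libraries 20 of 32 were lower and 1 higher, and the median was -0.64. The auxiliary channel subunits Cacna2d2 and Cacna2d3 and the subunit Cacnb3 had log2 fold changes of -1.01, -1.32 and -0.89 and passed over the 4 cortex libraries alone (adjusted p = 0.000154, 1.22e-05 and 1.14e-05).

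Neuropeptides and interneuron genes accounted for 4 of the falls. The neuropeptide Npy (chr6:49822710-49829507) stood at 403 and 501 CPM before and 122 and 104 CPM after onset, with 452 and 384 CPM in WT cortex, and fell (log2 fold change -2.01, SE 0.28, adjusted p = 0.0261). Sst (chr16:23889573-23891342), whose promoter is shown above, stood at 264 and 307 CPM before, 87.7 and 76.3 CPM after and 436 and 393 CPM in WT cortex (log2 fold change -1.81, SE 0.20, adjusted p = 0.0117). For both peptides the 2 post-symptomatic HD libraries were the lowest of the 6 cortex libraries. Gad1, which makes GABA, fell from 150.1 and 143 CPM to 58.4 and 75.7 CPM (log2 fold change -1.13, SE 0.18, adjusted p = 0.0366), and Pcsk2, the convertase that cuts peptide precursors, from 427 and 407 CPM to 229 and 208 CPM (log2 fold change -0.94, SE 0.15, adjusted p = 0.0366). Of 27 neuropeptides and granins, 3 fell over the 8 libraries (Npy, Sst and Pcsk2) and 15 of 25 were lower over the 4 cortex libraries, and of 27 interneuron genes, 3 fell (Npy, Sst and Gad1) and 13 of 25 were lower, with none higher in either list by either fit. Medians were -0.71 and -0.82. The opioid peptide precursor Pdyn stood at 31.5 and 15.2 CPM before and 2.24 and 3.26 CPM after (log2 fold change -3.09, adjusted p = 0.206, and 1.14e-05 over the 4 cortex libraries). Reln and Crhbp, both made by cortical interneurons, had log2 fold changes of -1.56 and -1.79 and passed over the 4 cortex libraries alone (adjusted p = 1.87e-05 and 0.000137). In whole tissue, fewer cells of a type and less RNA per cell cannot be told apart.

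Receptors for glutamate, GABA and histamine included genes that fell. Among 23 glutamate receptors 3 fell, and among 15 GABA receptors 1. Grm4, an inhibitory metabotropic glutamate receptor, stood at 50.9 and 51.8 CPM before, 10.9 and 13.4 CPM after and 73.3 and 58.5 CPM in WT cortex (log2 fold change -2.08, SE 0.19, adjusted p = 0.00371). Grm3, a metabotropic receptor of neurons and astrocytes, went from 82.6 and 99.4 CPM to 31.9 and 35.8 CPM (log2 fold change -1.43, SE 0.20, adjusted p = 0.0229), and the AMPA receptor subunit Gria3 from 410.2 and 391 CPM to 195 and 156 CPM (log2 fold change -1.20, SE 0.18, adjusted p = 0.03). Gabrd, the delta subunit of extrasynaptic GABA-A receptors, was reduced from 60.5 and 54.3 CPM to 14.9 and 14.6 CPM (log2 fold change -1.97, SE 0.22, adjusted p = 0.0117). The 2 post-symptomatic values of Gabrd nearly coincided and lay far below the WT values of 69.6 and 52.5 CPM. Among 34 monoamine, acetylcholine and opioid receptors 1 fell, the histamine autoreceptor Hrh3 (138 and 109 CPM to 41.5 and 40.1 CPM, log2 fold change -1.60, SE 0.25, adjusted p = 0.0366). In the fit of the 4 cortex libraries 8 of 22 glutamate receptors, 8 of 15 GABA receptors and 7 of 29 monoamine, acetylcholine and opioid receptors were lower and none higher. The NMDA receptor subunits Grin1 and Grin2b had log2 fold changes of -0.76 and -0.64 (adjusted p = 0.0616 and 0.114 over the 8 libraries, 3.28e-05 and 0.00034 over the 4). Median log2 fold changes of the 3 lists were -0.52, -0.59 and -0.57.

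The postsynaptic scaffolds had the highest share of lower genes of the lists when the 4 cortex libraries were fitted alone, with 23 of 28 lower and none higher, against 10.9% lower over all genes. Over the 8 libraries only Kalrn, an exchange factor that shapes dendritic spines, fell (562 and 563 CPM to 217 and 209 CPM, log2 fold change -1.41, SE 0.24, adjusted p = 0.0448). Nrgn, which holds calmodulin at the postsynapse, stood at 12745 and 14002 CPM before and 5332 and 4819 CPM after (log2 fold change -1.41, adjusted p = 0.103, and 2.09e-09 over the 4 cortex libraries). Dlgap3 and Synpo, a scaffold and an actin regulator of spines, were called over the 4 as well (adjusted p = 1.46e-06 and 7.52e-07). On the presynaptic side, 2 of 46 vesicle fusion genes fell. They were Rims1, an active zone organizer (90.6 and 88.3 CPM to 35.5 and 23.9 CPM, log2 fold change -1.60, SE 0.22, adjusted p = 0.0222), and Rph3a, the Rab3 effector rabphilin (469 and 455 CPM to 128 and 136 CPM, log2 fold change -1.81, SE 0.24, adjusted p = 0.0213). In WT cortex Rims1 stood at 25.4 and 18.3 CPM, within or below the range of the post-symptomatic HD libraries. Over the 4 cortex libraries 26 of 45 vesicle fusion genes were lower and none higher. Medians were -0.78 for scaffolds and -0.60 for vesicle fusion.

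No potassium or sodium channel gene passed over the 8 libraries, of 61 and 12 tested. Of 60 potassium channel genes tested over the 4 cortex libraries 32 were lower and none higher, and of 12 sodium channel genes 8 were lower and 2 higher. The sodium channel subunit Scn4b stood at 26.7 and 25.6 CPM before and 2.49 and 5.82 CPM after (log2 fold change -2.66, adjusted p = 0.0678 over the 8 libraries and 7.31e-06 over the 4). Kcnh3, a potassium channel of the forebrain, had 112 and 132 CPM before and 38 and 33.7 CPM after (adjusted p = 0.0988 and 1.11e-08). Medians were -0.69 and -0.58.

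Downstream of receptors, 3 genes of the lists fell. Of 18 RGS proteins and partners 2 fell, Rgs4 and Rgs7bp, which anchors RGS7 proteins to the membrane (1148 and 1075 CPM to 569.9 and 533 CPM, log2 fold change -1.02, SE 0.18, adjusted p = 0.0487), and over the 4 cortex libraries 7 were lower and 2 higher. One of the 2 was Rgs19, at 7.57 and 6.41 CPM before and 14.7 and 13.1 CPM after (adjusted p = 0.0196 over the 4 libraries). None of 36 cyclic nucleotide genes passed over the 8 libraries, and 11 were lower and 1 higher over the 4. Of 40 MAPK genes 1 fell, Rasgrf2, a calcium-dependent Ras activator of upper layers (266 and 269 CPM to 128 and 93.9 CPM, log2 fold change -1.28, SE 0.18, adjusted p = 0.0229), with 14 lower and 1 higher over the 4. Medians of the 3 lists were -0.44, -0.33 and -0.27. Dgkz, a diacylglycerol kinase, and Rasl10a and Rasgef1b, of the Ras family and its activators, lie outside these lists and fell, with log2 fold changes of -1.61, -1.78 and -1.57; they are named here after their values were seen.

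Immediate early genes, which neurons switch on within minutes of activity, gave no call over the 8 libraries among 30 tested. Over the 4 cortex libraries 6 of 29 were lower and none higher. Their median of -0.62 ranged from -1.03 to -0.04 as each cortex library was left out, and it was near 0 without pre-symptomatic replicate 2. Egr3 showed that spread between replicates, with 94 and 145 CPM before and 43.3 and 33.6 CPM after (adjusted p = 0.116, and 0.000231 over the 4). Nptx2, a secreted pentraxin that gathers AMPA receptors, stood at 19.1 and 26.2 CPM before and 6.71 and 5.2 CPM after (log2 fold change -1.93, adjusted p = 0.0546), close to the threshold, and was called over the 4 (adjusted p = 2.54e-05).

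Genes of cortical layers and projection neurons included 3 that fell of 29 tested, with 11 of 28 lower and none higher over the 4 cortex libraries and a median of -0.37. Besides Otof and Rasgrf2, this was Mef2c, a transcription factor of neurons and their synapses (3512 and 4041 CPM to 2088 and 1971 CPM, log2 fold change -0.90, SE 0.16, adjusted p = 0.0485). Lamp5, a membrane protein of upper layers and some interneurons, stood at 206 and 257 CPM before, 35.6 and 40 CPM after and 236 and 182 CPM in WT cortex, a log2 fold change of -2.62 (adjusted p = 0.07 over the 8 libraries and 2.8e-11 over the 4). Cux1, an upper layer factor, lay just above the threshold (log2 fold change -0.99, adjusted p = 0.0501).

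Genes of trophic and lipid pathways were lower wherever they were called. Sort1, the receptor sortilin that sorts BDNF, fell from 249.9 and 259.5 CPM to 125 and 119 CPM (log2 fold change -1.07, SE 0.16, adjusted p = 0.027), 1 of 13 neurotrophin genes, of which 7 of 11 were lower over the 4 cortex libraries, with a median of -0.81. The BDNF receptor Ntrk2 stood at 682 and 592 CPM before and 467 and 394 CPM after (adjusted p = 0.174 and 0.00126). None of 31 cholesterol genes passed over the 8 libraries, and 14 were lower and none higher over the 4, with a median of -0.68. Cyp46a1, the neuronal enzyme that clears cholesterol from brain, and Mvd, an enzyme of its synthesis, had log2 fold changes of -0.93 and -1.53. In the endocannabinoid list 4 of 9 were lower over the 4, with a median of -0.50. It was led by Mgll, the lipase that degrades 2-arachidonoylglycerol (578 and 526 CPM before, 213 and 225 CPM after, adjusted p = 0.0607 and 1.11e-08).

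Of 18 clock genes 2 fell. They were Dbp and Hlf, both PAR bZIP factors driven by the clock, which went from 77 and 93.4 CPM to 26.7 and 31.7 CPM (log2 fold change -1.55, SE 0.20, adjusted p = 0.0212) and from 371 and 341 CPM to 184 and 176 CPM (log2 fold change -0.99, SE 0.16, adjusted p = 0.0366). WT cortex held 55.5 and 76.4 CPM of Dbp and 269 and 294 CPM of Hlf, higher at 13 weeks than at 8 in both cases. In the list 8 were lower and 1 higher over the 4 cortex libraries, with a median of -0.42 in HD and 0.32 in WT cortex. The higher one was the repressor Cry1, at 7.99 and 10.1 CPM before and 24.4 and 20.7 CPM after (adjusted p = 0.0998 and 0.000512), and Ciart and Nr1d1, repressors as well, had log2 fold changes of -1.94 and -1.12. The hour of dissection is not given in the sources used here, and its part in these values was not tested.

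**Figure D3:**
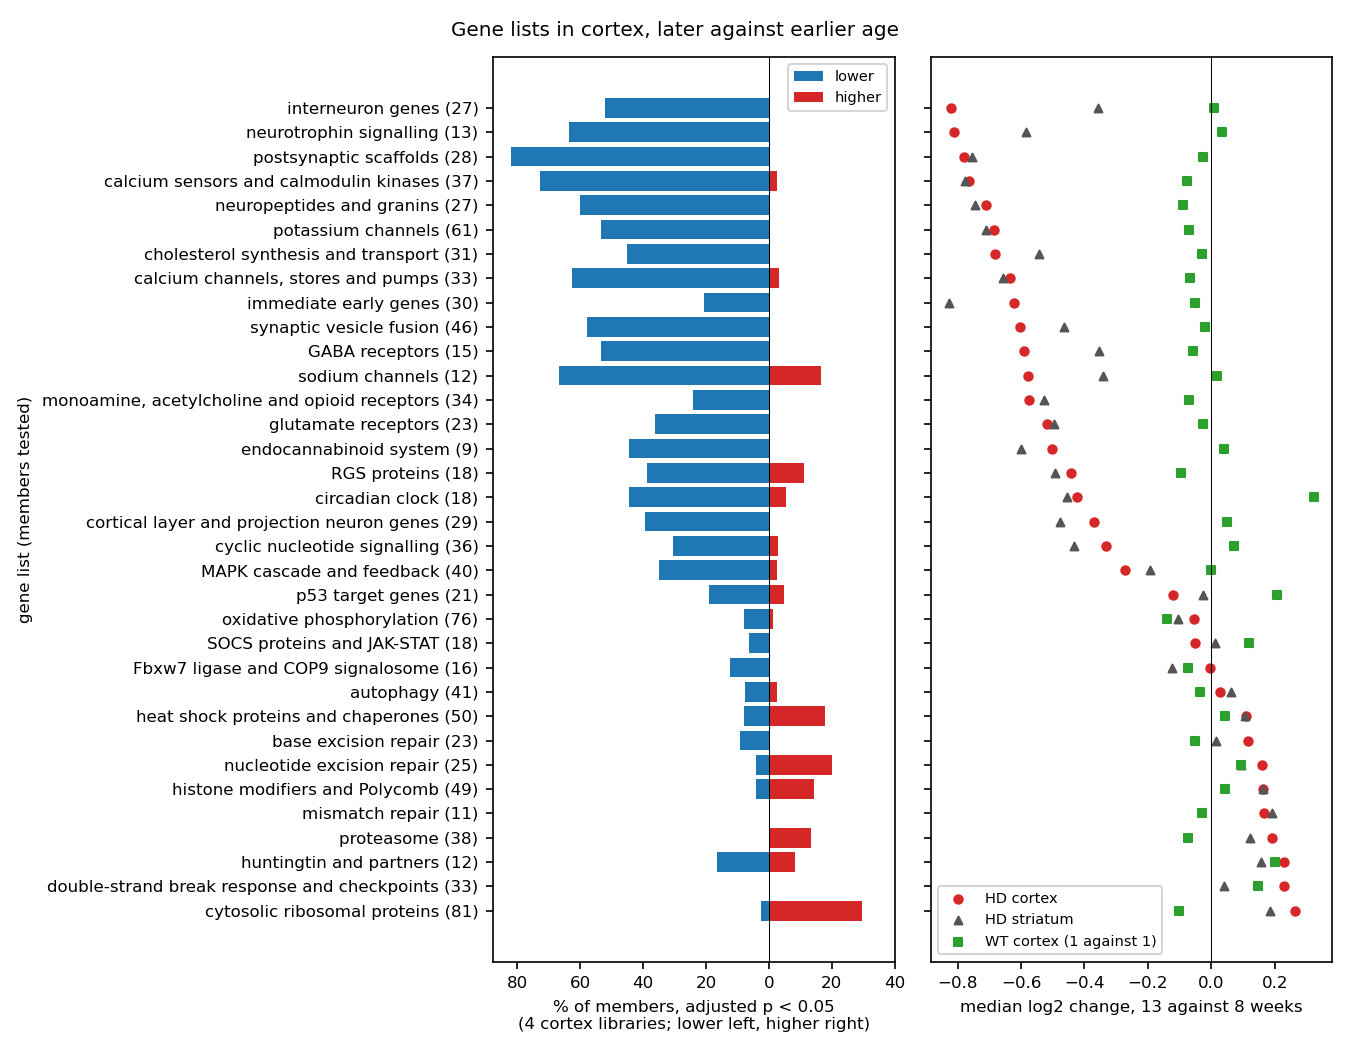
Gene lists in cortex. On the left, bars give the share of members called lower (blue, to the left) and higher (red, to the right) over the 4 HD cortex libraries, and on the right points give the median log2 change of each list from 8 to 13 weeks in HD cortex, HD striatum and WT cortex; the synaptic and channel lists lie below 0 in HD cortex, and ribosomal proteins lie at 0.27.

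Of the 5 genes that rose, 3 encode transcription factors of development and 2 are noncoding RNA hosts. Onecut2, a homeodomain factor that specifies cell types in development, had 92 and 157 counts before and 970 and 855 counts after, against 162 and 287 counts in WT cortex at 8 and 13 weeks (log2 fold change 2.56, SE 0.27, adjusted p = 0.0117). Pou4f1, a POU factor of sensory neurons, had 5 and 0 counts before, 283 and 144 counts after and 5 and 6 counts in WT cortex (log2 fold change 6.04, SE 0.87, adjusted p = 0.027), and Twist1, a bHLH factor of mesoderm, had 4 and 4 counts before, 101 and 102 after and 0 and 4 in WT cortex (log2 fold change 4.32, SE 0.62, adjusted p = 0.0256). Post-symptomatic HD cortex was the only one of the 4 cortex groups with more than 6 counts of Pou4f1 or Twist1, and both of its libraries were high. Pou4f1 and Twist1 could therefore pass the filter on low counts only through libraries in which they were high. The other genes that rose were the noncoding RNA hosts Snhg8 (40.4 and 42.3 CPM to 97.9 and 107 CPM, log2 fold change 1.30) and 1500012F01Rik (48.7 and 38.3 CPM to 114 and 120.1 CPM, log2 fold change 1.42), which overlap small nucleolar RNA genes.

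Some other developmental patterning factors were at or near 0 before onset. Of 48 listed, 20 had enough counts to be tested, and since a factor could pass that filter only through the libraries in which it was high, its number called is not read against the background. Hoxb5 had no count in either pre-symptomatic library and 115 and 36 counts in the post-symptomatic ones, at least 20.4-fold higher against a floor of 3 counts per library, and WT cortex had 1 and 0. For Lhx9 the counts were 0 and 0 before, 26 and 42 after and 1 and 1 in WT cortex, at least 9.26-fold higher, and for Hoxd8 they were 0 and 0 before, 20 and 20 after and 0 and 0 in WT cortex, at least 5.43-fold higher. Pax2 had 0 and 1 counts before and 33 and 22 after. Over the 8 libraries Hoxb5, Lhx9, Hoxd8 and Pax2 did not pass. Six3, which striatal neurons also make, had 8 and 3 counts before, 60 and 277 after and 23 and 213 in WT cortex, so its 13-week WT library was high as well. In the histone modifier and Polycomb list, Cbx7, a Polycomb reader, stood at 43.3 and 30.9 CPM before and 73.8 and 72.6 CPM after (adjusted p = 0.07 and 0.000192). Of the list, 7 of 49 were higher and 2 lower over the 4 cortex libraries, against 5.27% higher and 10.9% lower over all genes. Its median was 0.16.

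Genes of protein synthesis and turnover had medians above 0. None of 81 ribosomal protein genes passed over the 8 libraries, but 24 were higher and 2 lower over the 4 cortex libraries, against 5.27% higher over all genes, with a median of 0.27. Rps21 stood at 118 and 108 CPM before and 152 and 186 CPM after. Many of these genes have near-identical pseudogenes, so single values are uncertain. The ribosomal protein list summed to 11598 and 11993 CPM before, 13896 and 13815 CPM after and 15035 and 13893 CPM in WT cortex. Its pre-symptomatic HD sums were thus the lowest in cortex, and its post-symptomatic sums were not above WT. Of 37 proteasome genes 5 were higher and none lower over the 4 (median 0.19), among them Psmd14 (78.2 and 79.5 CPM to 116 and 112 CPM, adjusted p = 0.185 and 0.00265). The proteasome list summed to 3921 and 3849 CPM before, 4621 and 4260 CPM after and 4590 and 4295 CPM in WT cortex. There too the pre-symptomatic HD sums were the lowest, and the post-symptomatic sums were near those of WT. Of 50 chaperones 9 were higher and 4 lower over the 4 (median 0.11), and the share lower was below the 10.9% over all genes. Hspb1 was among the higher (log2 fold change 0.66) and Hspa12a among the lower (-1.21). In oxidative phosphorylation 1 of 76 fell, Cox5b, a subunit of cytochrome oxidase (264 and 167 CPM to 72 and 73.6 CPM, log2 fold change -1.57, SE 0.24, adjusted p = 0.0352). Its pre-symptomatic replicates differed by more than its post-symptomatic ones, and WT cortex held 97.5 and 85.1 CPM, close to the post-symptomatic values. The list's median was -0.05. Over the 4 cortex libraries 6 of 76 were lower and 1 higher, shares below the 10.9% lower and 5.27% higher over all genes.

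Genes of the DNA damage response, of the Fbxw7 ligase and of huntingtin turnover, which the study was about, gave 1 call. Fbxw7 (chr3:84814990-84979198), the substrate receptor of an SCF ubiquitin ligase, stood at 726 and 702 CPM before, 301 and 303 CPM after and 637 and 605 CPM in WT cortex at 8 and 13 weeks. Both post-symptomatic libraries were lower than the other 4, and Fbxw7 fell (log2 fold change -1.25, SE 0.15, adjusted p = 0.017; adjusted p = 1.76e-08 over the 4 cortex libraries). Cops6, a subunit of the COP9 signalosome, stood at 59.5 and 53.2 CPM before and 56.1 and 57.6 CPM after (log2 fold change 0.00, SE 0.18). Usp28, a deubiquitinase that counters Fbxw7, stood at 3.36 and 5.32 CPM before and 3.61 and 4.76 CPM after (log2 fold change -0.06, SE 0.44). The checkpoint kinase Chek2 had 4 and 12 counts before and 13 and 20 after, and Chek1 had 0 and 6 before and 2 and 26 after. At counts this low only a large difference that both replicates share could be detected. Htt, the mouse huntingtin gene, stood at 40.8 and 39 CPM before and 32.6 and 45.7 CPM after (log2 fold change -0.03, SE 0.23), and H2afx, the histone variant marked at DNA breaks, at 31.4 and 29.4 CPM before and 30.4 and 30.6 CPM after. The remaining genes taken from the study or, for Socs2, from the title of the data series were Trp53, Atm, Xrcc6, Ddb1 and Socs2, with log2 fold changes of 0.81, -0.19, 0.25, 0.08 and -0.36 and adjusted p of 0.529, 0.779, 0.833, 0.875 and 0.648.

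By pathway, repair genes gave no call over the 8 libraries. Over the 4 cortex libraries 10.9% of all genes tested were lower and 5.27% higher, the background for the counts in this paragraph. Of 22 base excision repair genes tested over the 4 cortex libraries 2 were lower, a count close to that background. These were Polb, the gap-filling polymerase (56.9 and 45.6 CPM before, 25 and 26.2 CPM after, adjusted p = 0.0606 and 0.000387), and Parp1, the break sensor (74.2 and 58.8 CPM before, 39.4 and 41.4 CPM after, adjusted p = 0.141 and 0.00393). Of 25 nucleotide excision repair genes 5 were higher and 1 lower. Xpa, the damage verifier, led the higher ones (log2 fold change 1.07, adjusted p = 0.0644 and 0.00102, 25.2 and 27.3 CPM after onset). None of 11 mismatch repair genes was called by either fit, and none of 33 double-strand break genes over the 8 libraries or of 30 over the 4. Medians of the 4 lists were 0.12, 0.16, 0.17 and 0.23. Of 21 p53 targets 4 were lower and 1 higher over the 4 (median -0.12). One of the lower was Cdkn1a, the cell cycle inhibitor p21, at 42.4 and 69.5 CPM before, 21.4 and 26.5 CPM after and 28 and 26.8 CPM in WT cortex, so that its pre-symptomatic HD values were the highest. Apart from Fbxw7, the ligase and COP9 list had 1 more gene lower over the 4, Cops7b (log2 fold change -0.82), and a median near 0, at -0.0031. Autophagy genes had a median of 0.03, with 3 lower and 1 higher over the 4, SOCS and JAK-STAT genes -0.05 with 1 lower, and huntingtin and its partners 0.23 with 2 lower and 1 higher.

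Markers of cell types differed in how they moved. The summed level of 17 neuron markers was 17701 and 17174 CPM before and 10633 and 10178 CPM after onset, with 15553 and 14875 CPM in WT cortex, and that of 19 astrocyte markers was 7590 and 7671 CPM before and 4435 and 4456 CPM after, with 6791 and 6343 CPM in WT cortex. In both lists the 2 post-symptomatic libraries were the lowest of the 6. With 2 libraries against 2, an exact two-sided permutation test cannot go below p = 0.33, which both lists gave. Among astrocyte genes Slc1a2, the main glutamate transporter, fell from 3725 and 3664 CPM to 1749 and 1904 CPM (log2 fold change -1.02, SE 0.17, adjusted p = 0.0401), and 11 of 19 were lower over the 4 cortex libraries. Among neuron markers, 12 of 17 were lower and 2 higher. The neuronal splicing factor Rbfox3 stood at 805 and 864 CPM before and 442 and 399.8 CPM after (adjusted p = 0.0801 and 6.76e-07). The neuron list holds synaptic genes, and the falls of the synaptic lists above moved with its sum. Their part in each other was not tested.

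Median log2 fold changes were -0.67 for neuron, -0.55 for astrocyte and -0.44 for microglia markers. They were -0.10 for oligodendrocyte and -0.08 for endothelial and mural markers. Over the 4 cortex libraries 10.9% of all genes were lower and 5.27% higher, the background for the calls in this paragraph. Oligodendrocyte markers summed to 2740 and 3115 CPM before and 2911 and 3243 CPM after in HD cortex, but to 5053 and 4807 CPM in WT cortex, so that all 4 HD libraries were below both WT libraries. In the 4-library fit 4 of 21 were higher and none lower, and Ermn, of myelinating cells, stood at 28.3 and 34.7 CPM before and 58.5 and 57 CPM after (adjusted p = 0.000724 over the 4). Microglia markers summed to 548 and 648 CPM before, 524 and 416 CPM after, and 551 and 550.1 CPM in WT cortex. Fcrls, a receptor of resting microglia, fell from 16.9 and 21.9 CPM to 1.12 and 2.47 CPM (log2 fold change -3.44, SE 0.41, adjusted p = 0.0168). It was also lower in the 13-week WT library, with 18.1 and 3.48 CPM in WT cortex, and the difference of its HD change from its WT change had an adjusted p of 0.5 over the 6 cortex libraries. Of 20 microglia markers 4 were lower over the 4. Without overlap of the HD groups 15 were lower and 1 higher, against 28.8% and 26.5% of all genes. Endothelial and mural markers summed to 609.9 and 633 CPM before and 562 and 609 CPM after. Over the 4, 1 of 23 was lower, a share below that of all genes.

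Choroid plexus transcripts set the 2 post-symptomatic libraries apart from each other. The 9 markers summed to 5.78 and 4.67 CPM before onset, 75.5 and 3103 CPM in post-symptomatic replicates 1 and 2, and 7.58 and 8.48 CPM in WT cortex. Nearly all of this was Ttr, the thyroid hormone carrier transthyretin of the choroid plexus, at 66.6 and 2961 CPM in the 2 post-symptomatic libraries and 0.315 and 1.74 CPM before. Otx2, a homeodomain factor of that tissue, stood at 1.29 and 10.4 CPM after onset and was not counted before it. None of the 9 was called over the 8 libraries, and none of the 7 tested over the 4. The developmental factors above went either way between the 2 libraries. Pou4f1, Onecut2 and Hoxb5 were higher in replicate 1 (24.3 and 12.7 CPM, 83.4 and 75.4 CPM and 9.89 and 3.18 CPM in replicates 1 and 2), Lhx9 and Six3 were higher in replicate 2 (2.24 and 3.7 CPM and 5.16 and 24.4 CPM), and Twist1 and Hoxd8 were nearly equal in both (8.69 and 9 CPM and 1.72 and 1.76 CPM). The part of choroid plexus tissue in these values was not tested. Without replicate 2, edgeR called 0 genes over the other 7 HD libraries, with 1108 at an unadjusted p under 0.05, and 2155 of 14141 over the 3 cortex libraries left. In both fits the single post-symptomatic cortex library was assumed to vary like the other groups, so these counts do not show what part replicate 2 had in the calls. Striatal neuron markers summed to 499.9 and 519 CPM before and 319 and 317 CPM after, whereas their median log2 fold change was 0.30, of the opposite sign. Large differences were those of Ppp1r1b, the phosphatase regulator DARPP-32 (122 and 119 CPM to 27.6 and 45.2 CPM), and Rasd2 (66 and 77.6 CPM to 19.6 and 17.8 CPM), both called over the 4 cortex libraries alone (adjusted p = 6.61e-05 and 6.21e-08).

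**Figure D4:**
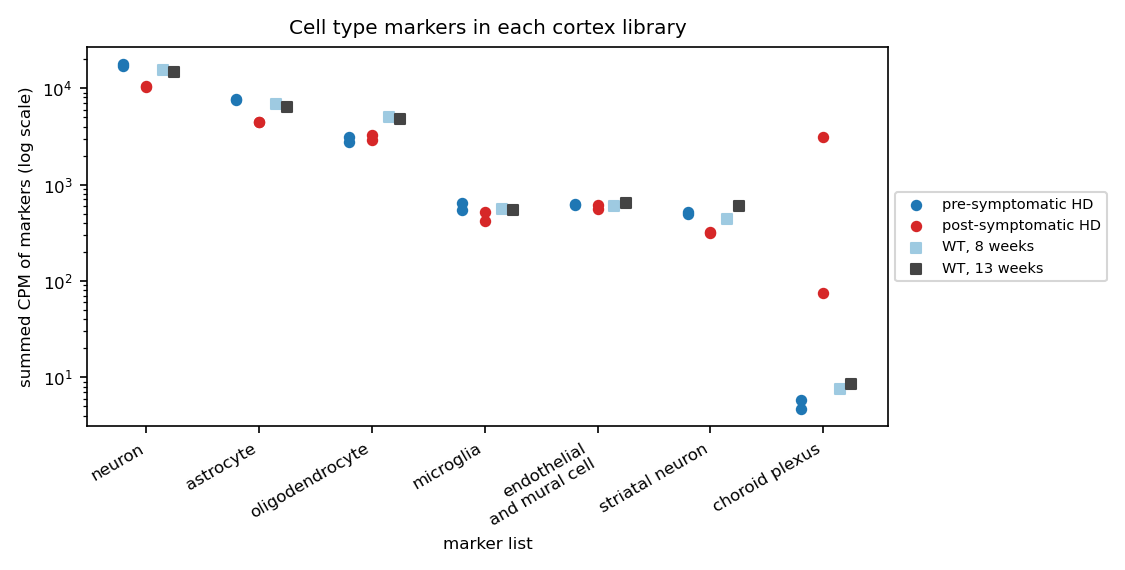
Summed CPM of marker lists in each cortex library, on a log scale. Circles are HD and squares WT libraries; neuron and astrocyte sums are lower in both post-symptomatic HD libraries than in the other 4, and choroid plexus markers are highest, at 3103 CPM, in post-symptomatic replicate 2.

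WT cortex was measured at the same ages, so that the HD change could be set beside the WT change. Of the 80 genes that fell in HD cortex, 65 were lower at 13 weeks than at 8 in WT cortex, against 49.7% of all genes, with a median log2 ratio of -0.17 in place of -1.51. For 77 of the 80, the exceptions being Rims1, Gpr26 and Ptn, both post-symptomatic HD libraries were below both WT libraries. The 80 were chosen for their fall in HD cortex, and so these counts are descriptions. The share of all genes below both WT libraries in this way was not computed, so the 77 are not read against a background. All 5 genes that rose in HD cortex had a WT log2 ratio above 0. For Pou4f1, with 5 and 6 WT counts, and Twist1, with 0 and 4, the counts are too low for that sign to be read. All 5 were higher in both post-symptomatic HD libraries than in either WT library, and for this too no share over all genes was computed. The difference of the HD change from the WT change was called for 0 of 15337 genes (0.00%) over all 12 libraries by edgeR, with 548 genes at an unadjusted p under 0.05 and 18 genes called by DESeq2. Over the 6 cortex libraries alone, a fit chosen after the data were seen and whose spread came from the HD replicates, 481 of 14655 genes passed (3.28%), and 74 of the 85 called genes were among them, 71 that fell and 3 that rose. Rgs4, Camkk2 and Rph3a had adjusted p of 9.73e-07, 1.06e-06 and 2.85e-06 in that fit, and Twist1, with 0 and 4 WT counts, had 0.898. Each WT age had 1 library. The 85 genes were chosen for the HD change, which is itself part of this contrast and comes from the same HD libraries. Their number in that fit and their adjusted p there are therefore descriptions, not a separate test. Striatal neuron markers summed to 442 CPM in the 8-week and 604 CPM in the 13-week WT cortex library, with a median log2 ratio of 0.67. Age, sex and this difference in striatal transcripts cannot be told apart in WT cortex.

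In HD striatum the same genes moved in the same direction for the most part. Of the 80 that fell in cortex, 78 had a log2 fold change below 0 in striatum, against 49.6% of all genes tested, with a median of -0.88, and 14 were called there. All 5 that rose in cortex were above 0 in striatum and 1 was called. Rgs4 had log2 fold changes of -2.49 in cortex and -2.55 in striatum, and Pou4f1 of 6.04 and 6.25. Scube1 had -3.06 and -0.89, and Dlx1as -2.63 and -0.60. For 70 of the 80 the fall was larger in cortex, the region in which they were called. The difference between the regions was called for 0 of 14392 genes (0.00%) by edgeR, with 519 at an unadjusted p under 0.05, and for 17 by DESeq2. With either pre-symptomatic striatal library left out, 168 or 153 genes were called, and so this count does not show that the regions changed alike.

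**Figure D5:**
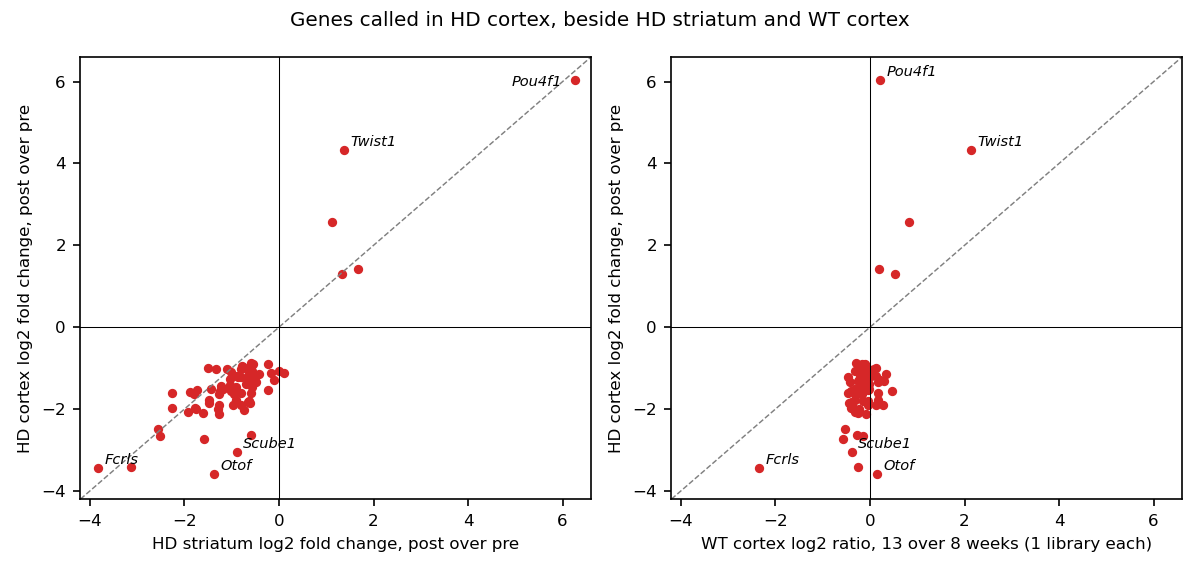
Log2 changes of the 85 called genes in HD cortex (y axis) beside those in HD striatum (left) and in WT cortex from 8 to 13 weeks (right, 1 library at each age). The dashed line marks equal change; 78 of the 80 genes that fell lie left of 0 in striatum, and in WT cortex their median is -0.17.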

How the data were processed

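Libraries of total RNA were made with the Lexogen QuantSeq kit, and the authors deposited raw counts, in a table for each library that lists gene symbols and their reads. The submitters' processing notes name Bowtie2, bedtools and mm10, with no role or version, and the annotation and counting rule are not given in the sources used here. The tables had 23282 rows. In 4306 rows all 12 libraries were at 0, and 44 rows repeated a symbol. Genes were tested in R 4.3.3 with edgeR 4.0.16 (TMM, filterByExpr at 10 counts, quasi-likelihood test with robust estimation, Benjamini-Hochberg adjustment, threshold 0.05). The main fit had a mean for each of the 4 HD groups over 8 libraries, and differences from striatum and from WT cortex were contrasts. DESeq2 1.42.0, other scalings, filters and sets of libraries were alternatives. CPM are counts scaled to the TMM-adjusted library total, WT ratios add 0.1 CPM, and list medians are over the members tested. Intervals were not computed, and since reads carry no molecular identifiers, precision from counts covers counting error only. The methods were tested on simulated data.

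The members, lists and tests were chosen with earlier results of these data known. Named genes were up to 15 that fell and 10 that rose most (adjusted p under 0.05, mean of at least 5 CPM, groups without overlap), every list member called, up to 3 further members per list by p, and genes from the study. Ttr, Hoxd8, Lhx9, Drd2, Adora2a, Isl1, Gpr26, Ptn, Dio2, Fstl4, Dgkz, Rasl10a and Rasgef1b were also picked once their values were known. Positions and promoters came from RefSeq GRCm38.p6, the assembly called mm10. The labels give 13 weeks for the later age. The labels number only the second library of each HD group, so the others were called replicate 1. One gene that the rule names is not reported here.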

Additional observations from a re-analysis of the deposited data

How the results depend on the processing

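Genes called in HD cortex after against before onset numbered 85. They numbered 45 with upper-quartile normalization, 72 with DESeq2 size factors in edgeR, 251 with no filter on low counts, 87 with at least 1 CPM in every library, 84 without Rn45s, 91 over all 12 libraries, 59 without robust estimation, 6 at an adjusted p of 0.01, 558 with DESeq2 and 2210 over the 4 HD cortex libraries alone. No alternative turned the direction of a called gene. List medians near 0 changed sign with upper-quartile normalization for oxidative phosphorylation (0.0161), the Fbxw7 and COP9 list (0.0677) and SOCS and JAK-STAT genes (0.0188). With a cortex library left out, signs changed for oxidative phosphorylation (0.0014), the Fbxw7 and COP9 list (0.0339), autophagy (-0.0309) and p53 targets (0.0423). Leaving out each of the 8 HD libraries gave 0 to 1202 calls. Chosen after the data were seen, the 4-library fit gave 1356, 1388, 2155 or 2482 calls with 1 library left out and 1826 with DESeq2. The difference from striatum, 0 genes, became 17 with DESeq2, 1 without the filter and 0 to 168 with a library left out. The difference from WT, 0 genes, became 18 with DESeq2, 0 to 75 with a library left out, and 481 over the 6 cortex libraries. Those fits differ in which libraries and how many genes enter, and beyond that the cause was not tested. With the replicate number as a block, 109 genes were called in cortex, 1845 over the 4 cortex libraries and 1 for the difference from WT. The number follows sex in the cortex groups, but no label says that it marks a shared mouse, litter or day. Same-numbered replicates correlated in their deviations by 0.0468 between the cortex groups and by 0.0199 to 0.262 over the 6 pairs of HD groups. Only striatum and cortex of the same stage could come from the same mouse, and these correlated by 0.2 after onset and 0.112 before. Not every pair was above 0.1 and no label names a shared mouse, so the samples were taken as unpaired. The 8-library fits thus treated the 2 regions as independent, and whether they shared mice was not tested. With 2 libraries per group, each call over the 8 libraries rests on all 4 cortex libraries. For transcripts at a few counts, such as Chek1 and Chek2, only a large difference can be detected at this depth.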
